A study of Homo sapiens with 2 samples.

Results

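The 3' UTR peaks described here are stretches of the human genome where a CRTC2 RNA immunoprecipitation (RIP) library held more RNA fragments than its control in a deposited peak list, and which that list annotates as 3' UTR. A peak entered if its annotation read 3' UTR, if it was at most 10 kb wide and if it lay on a main nuclear chromosome. This left 23593 of the 24304 rows annotated as 3' UTR, in a list of 175546 peaks. Of the rows left out, 592 were wider than 10 kb and 119 lay on alternative or unplaced contigs. The widest peaks inside the limit, of 9971, 9979 and 9980 bases, had folds of 1.92, 1.84 and 1.94. The narrowest outside it, of 10051, 10113 and 10118 bases, had folds of 1.84, 1.94 and 1.94.

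The cells were HCCLM3, an established human hepatocellular carcinoma line, and the labels give the genotype of both samples as WT. CRTC2 works as a coactivator of CREB, the cAMP-responsive transcription factor. RNA bound to precipitated CRTC2 was sequenced as 1 RIP library beside 1 library of input RNA. The series concerns CRTC2 together with YTHDF2, a cytoplasmic reader of N6-methyladenosine (m6A), and the RIP was made to find RNAs that associate with CRTC2. With 1 library on each side there is no replicate and no test between conditions, and no precipitation with a control antibody was analysed here, so that RNA held by CRTC2 cannot be told apart from RNA held by the beads.

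The 3' UTR is the part of a messenger RNA between the stop codon and the poly(A) tail. It is not translated, and it carries binding sites for microRNAs and for RNA-binding proteins that set how long a message lasts, where in the cell it lies and how often it is translated. In mammalian messages m6A is frequent near the stop codon and along the 3' UTR, where YTH-domain proteins can bind it.

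Sequence under 3' UTR peaks could be read for 16 summits that fell inside a RefSeq promoter window of a neighbouring gene, of which 1 passed a q-value of 0.05. The 2 printed here are that peak and the one in RBM47, which is the only other of the 16 with a −log10 q above 0, at 0.900. Each line gives the 30 bases around the summit on the strand of the gene, with the summit base in capitals. The EPB41L5 window lies at chr2:120174946-120174975, plus strand, and the RBM47 window at chr4:40425995-40426024, minus strand, both in RefSeq's GRCh38.p14, an hg38 assembly. The EPB41L5 peak had a fold of 4.40 (95% interval 1.84 to 9.88) on 4 RIP fragments. The RBM47 peak had a fold of 2.76 (1.76 to 4.15) on 21 fragments and did not pass. Both names are those of the RefSeq gene at the summit, while the list assigns these peaks to TMEM185B and MIR4802. EPB41L5 codes for a FERM-domain protein of epithelial cells, and RBM47 for an RNA-binding protein that takes part in apolipoprotein B editing.
EPB41L5: tcctgggatccgttTcagctagaatatgtt
RBM47: actacagaagaacgcGgcagccgcggccgc

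MicroRNAs of the let-7 family bind 3' UTRs through the seed, bases 2 to 8, which is in capitals in the lines below. The 9 family names in RefSeq share this 1 seed, and let-7a and miR-98 are shown because messages known as let-7 targets form a list below.
hsa-let-7a-5p: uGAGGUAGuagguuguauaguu
hsa-miR-98-5p: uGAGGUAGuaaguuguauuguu

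The fold of a peak is the authors' value from the peak caller MACS2, RIP over control at the summit with 1 added to each side. The fold and p-value of a peak together limit the number of RIP fragments at the summit and the control level set against them, and whole numbers of fragments met both values for 100% of peaks, to within 0.001. For 96.4% of the 3' UTR peaks a single number met them, and for the others more than 1 did and the closest was taken. Where the control level was set at the summit, it moved in steps of 0.634, the worth of 1 control fragment on the scale of the RIP library. Where a wider window set it, as described below, the steps were finer, and the floor was 0.0298. The labels do not name the control of the peak calls, and it is taken here to be the input library. Intervals below are exact 95% intervals, Poisson for folds at a fixed control level and Clopper-Pearson for shares. They cover counting error only, and fragments of an amplified library are not independent molecules. Peaks had been kept at an unadjusted p-value of about 0.05, the lowest −log10 p being 1.30, so that membership in the list is weak evidence for any 1 peak.

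The 3' UTR peaks made up 14.9% (14.7 to 15.1) of the 158595 peaks of at most 10 kb on main chromosomes. Most were small and rested on few fragments. Their median width was 134 bases (quartiles 49 and 251), and their median depth was 3 RIP fragments at the summit (quartiles 1 and 5). Of these peaks, 6563 (27.8%) rested on 1 fragment and 6645 (28.2%) on at least 5. The median fold was 1.92 (quartiles 1.76 and 2.45), with a range of 1.35 to 19.4. A peak on 1 fragment could not exceed a fold of 1.94, which is that fragment over the floor. The counting interval of the fold lay wholly above 1 for 7515 peaks (31.9%) and wholly above 2 for 190.

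**Figure D1:**
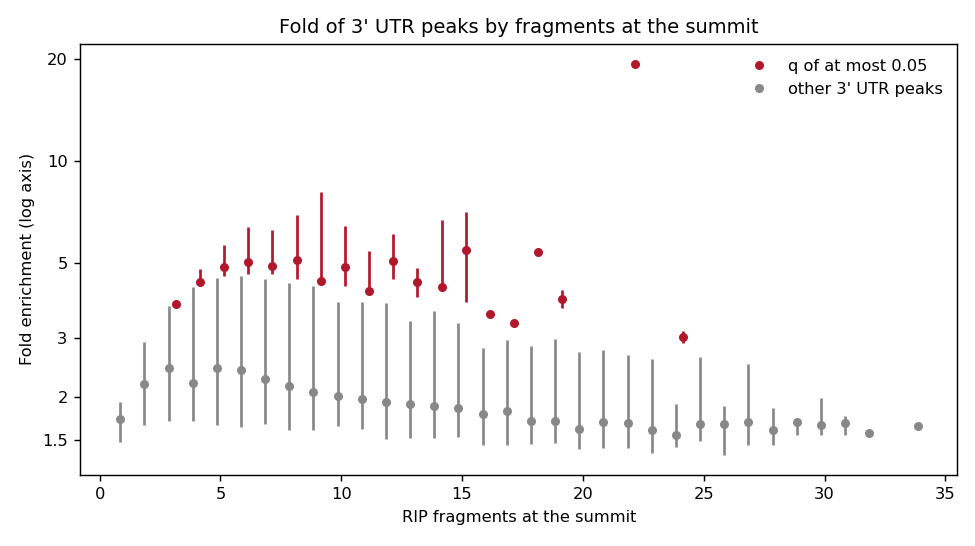
Fold enrichment of the 3' UTR peaks (vertical axis, log scale) by the number of RIP fragments at the summit (horizontal axis); points are medians and lines run from the lowest to the highest fold, red for peaks at a q-value of at most 0.05 and grey for the others. Peaks that passed had at least 3 fragments, and folds past 5 lay mostly at 5 to 15 fragments.

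At a q-value of at most 0.05, 213 of the 23593 3' UTR peaks passed, or 0.903% (0.786 to 1.03), against 1.49% of all 158595 peaks. The share was close to that of the last exons of coding transcripts, at 0.886% (0.585 to 1.29). It was lower than that of the other exons of coding transcripts, at 3.03% (2.87 to 3.19), and of 5' UTRs, at 2.83% (2.29 to 3.46). The intervals of 3' UTRs and of these other exons and 5' UTRs do not overlap. Read against the background, a 3' UTR peak passed less often than a peak of the list at large.

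Depth at the summit moved with the difference between 3' UTRs and other coding exons. Other coding exons had a median of 4 fragments, and 46.1% of their peaks had at least 5. Among peaks of at least 5 fragments, 156 of 6645 3' UTR peaks passed, or 2.35% (1.997 to 2.74), against 3.52% of all such peaks. The share at that depth was 4.002% (3.74 to 4.28) in other coding exons, 4.37% (3.27 to 5.71) in 5' UTRs and 1.84% (1.14 to 2.79) in last coding exons. At 10 or more fragments the shares were 3.16% (2.39 to 4.09) of 3' UTR peaks and 3.24% (2.84 to 3.67) of peaks in other coding exons, with overlapping intervals. At 5 to 9 fragments they were 2.06% (1.68 to 2.50) and 4.41% (4.08 to 4.77), and at 3 or 4 fragments 0.964% (0.731 to 1.25) and 4.56% (4.19 to 4.95). Peaks on 1 or 2 fragments could not pass, as 2 fragments over the floor gave a −log10 q of only 0.893. Peaks on 1 and on 2 fragments were 27.8% and 19.0% of 3' UTR peaks, against 12.2% and 15.8% in other coding exons. The shares over all peaks thus mix passing with depth. Among peaks that could pass, the difference was found at 3 to 9 fragments and was not detectable at 10 or more.

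**Figure D2:**
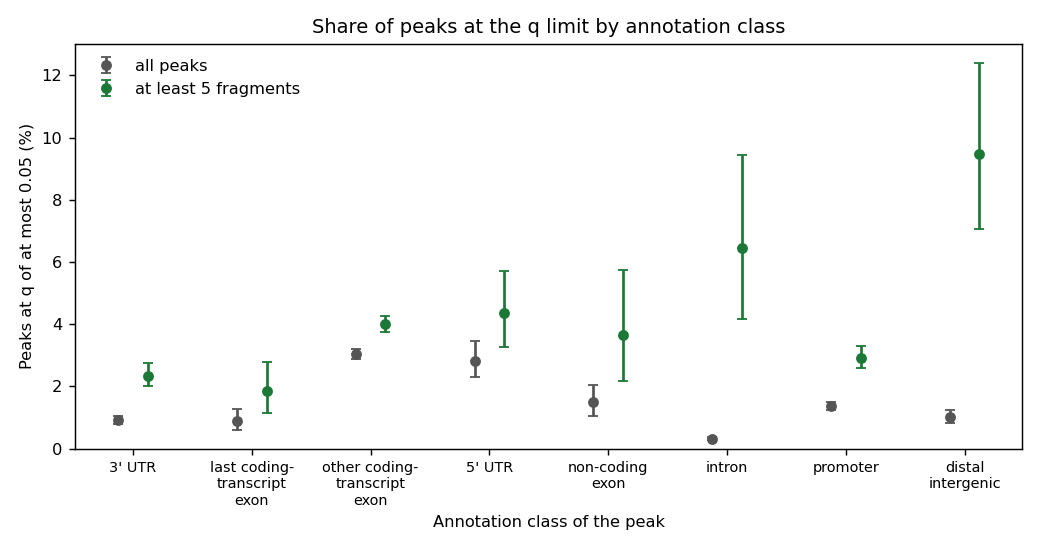
Share of peaks at a q-value of at most 0.05 (vertical axis, %) by annotation class (horizontal axis), for all peaks in grey and for peaks of at least 5 RIP fragments in green; bars are exact 95% intervals for counting error. The 3' UTR class, at 0.903% and 2.35%, lies with the last coding exons and below the other coding exons and 5' UTRs.

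The gap also moved with the control level. Where the control level at the summit lay above 0.05 and up to 0.3, 0.935% (0.736 to 1.17) of 3' UTR peaks passed, against 7.75% (7.20 to 8.32) of peaks in other coding exons. Between 0.7 and 1.5 the shares were 1.23% and 2.24%. Between 1.5 and 3 they were 0.969% and 1.15%, with overlapping intervals. Up to 0.05 they were 1.99% and 8.15%, and between 0.3 and 0.7 they were 0.816% and 2.65%. Across levels the 3' UTR share stayed low, while the share in other coding exons fell steeply as the control level increased. Level and depth are mixed here, as at 0.05 to 0.3 the median depth was 1 fragment in 3' UTRs and 2 in other coding exons.

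MACS2 takes as control level the highest of several windows. The list does not record which window set it, so the window was inferred here from the step on which the recovered level fell. A fragment length of 31 bases was assumed. Levels above the floor that fell on neither the summit step nor the 1 kb step were counted as 10 kb. The inferred window differed between the classes. For 3' UTR peaks it was the summit itself in 41.7%, the 1 kb window in 41.9% and the 10 kb window in 15.7%. For other coding exons these shares were 71.8%, 19.8% and 6.93%. Among peaks whose level came from the 1 kb window, 1.22% of 3' UTR peaks passed, against 7.51% of peaks in other coding exons. Among those set by the summit the shares were 0.661% and 1.37%. The part of the window in the passing shares was not tested beyond these values.

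**Figure D3:**
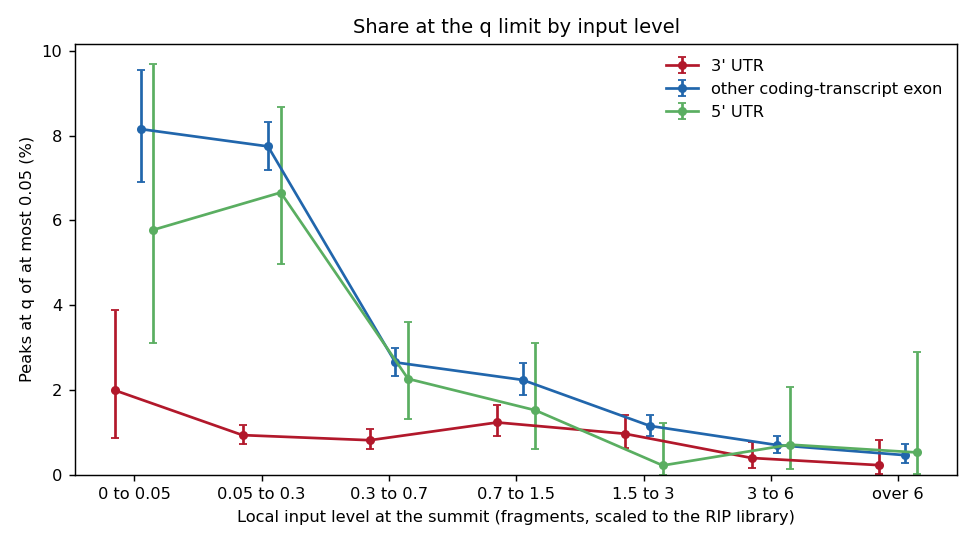
Share of peaks at a q-value of at most 0.05 (vertical axis, %) by the control level at the summit in fragments scaled to the RIP library (horizontal axis), for 3' UTRs in red, other coding exons in blue and 5' UTRs in green; bars are exact 95% intervals. The 3' UTR share is 0.935% against 7.75% in other coding exons at levels of 0.05 to 0.3, and the classes come together at higher levels.

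The 213 passing 3' UTR peaks had a median fold of 4.63 (quartiles 4.32 and 4.95, lowest 2.91) and a median of 7 fragments, with a range of 3 to 24. They were wider than 3' UTR peaks at large, with a median of 384 bases. Only 4 of them reached a −log10 q of 5.

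The gene beside each peak needs care. The list assigns the transcript whose start is nearest, and 10088 of the 23593 3' UTR peaks (42.8%) overlapped the transcript assigned to them. The others lay outside it, and 5463 peaks (23.2%) had been assigned a non-coding transcript. RefSeq loci gave a second view, as 21853 summits (92.6%) lay in exactly 1 protein-coding locus. Of the overlapping peaks, 8647 (85.7%) lay in exactly 1 coding locus and it was the assigned gene. Gene names below come from overlapping peaks unless the RefSeq locus at the summit is named.

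By overlap, 3791 genes had a 3' UTR peak, of which 3665 were protein-coding, or 18.3% of the 20052 coding genes in RefSeq. By the locus at the summit, 7277 coding genes had one, or 36.3%. The 2 ways shared 3299 genes. A gene held a median of 2 overlapping 3' UTR peaks, 41.5% of the genes held 1, and 84 held at least 10. Neighbouring peaks in one RefSeq gene were at least 151 bases apart, with a median gap of 402 bases, so that long 3' UTRs were split into rows of short peaks that share 1 message and are not independent.

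The longest rows lay in GPATCH2L, with 30 peaks over 38678 bases, and in NOPCHAP1, with 25 peaks over 21196 bases. SMAD2, which carries TGF-beta signals to the nucleus, had 19, SLC60A2 had 18 and METTL21A had 17. In GPATCH2L 15 of the 30 peaks rested on 1 fragment, the median fold was 1.84 and the highest 3.40. The highest fold in SMAD2 was 4.02, on a row whose deepest peak had 5 fragments. None of these genes had a 3' UTR peak at the q limit. Of the 17 peaks assigned to METTL21A, 2 had their summit in that gene's locus alone.

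Most of the highest folds among overlapping 3' UTR peaks lay close together, with wide intervals on few fragments. ANKRD42 had a fold of 6.95 (3.44 to 12.9) on 8 fragments, with its summit 43194 bases before the end of the assigned isoform. MECOM, a zinc-finger transcription factor of blood stem cells and some leukaemias, had 6.12 (3.13 to 11.1) on 9 fragments at chr3:169083576-169085013. RAP2C, a small GTPase of the RAS family, had the same fold on 9 fragments at chrX:132203110-132203525, 149 bases before the transcript end. The 3 intervals overlap each other, and their order cannot be read from these counts.

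NT5DC3 followed at 5.91 on 7 fragments and SNX33, a sorting nexin of endocytosis, at 5.85 on 6 fragments. HEMK2, a methyltransferase that acts on the release factor of translation, had 5.63 on 5 fragments. A peak assigned to the antisense RNA ZNF217-AS1 had 5.66 on 12 fragments, and the coding gene at its summit was ZNF217, a transcriptional regulator amplified in several cancers. A peak assigned to DRC9, a protein of motile cilia, had 5.51 on 8 fragments, but RPL35A also covers that summit. It lay 66700 bases before the end of the DRC9 isoform. ANKRD46 had 5.41 on 6 fragments, 12641 bases before the end of the assigned isoform. Folds of this size thus came from small counts over control levels that were mostly at or below 1 control fragment.

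SETD1B, a histone H3 lysine methyltransferase, had a lower fold of 5.38 (3.30 to 8.33) with more RNA behind it, 18 fragments over a control level of 2.53 at chr12:121830116-121832530. Its −log10 q of 4.67 equalled that of ANKRD42 to the printed precision. A peak assigned to HMOX2 by an overlap at its edge had 4.80 on 4 fragments, with the summit past that transcript's end and inside CDIP1.

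Several of the highest 3' UTR peaks did not overlap the gene assigned to them. By the RefSeq locus at the summit, the highest of these were FAM83H at 8.09 (4.14 to 14.6) on 9 fragments and TAF1, the scaffold subunit of TFIID, at 7.06 (4.14 to 11.4) on 15 fragments. POM121C, a nucleoporin with near-identical copies, had 6.70 on 14 fragments. SUCO had 6.44 on 10 fragments, TRIP4, a transcriptional coactivator, 6.37 on 6 fragments and MYO5A, a myosin motor, 6.27 on 7 fragments. IGF1R, the receptor of insulin-like growth factor 1, had 6.12 (3.13 to 11.1) on 9 fragments. In the list the peaks in FAM83H, TAF1, POM121C and IGF1R carry the names MAPK15, INGX, NSUN5P1 and PGPEP1L. The peaks in FAM83H, TAF1 and POM121C are among the 4 that reached a −log10 q of 5. FAM83H stood at 6.82, TAF1 at 6.15 and POM121C at 5.37.

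At the q limit, 81 genes had an overlapping 3' UTR peak, of which 79 were coding, or 2.16% of the coding genes with one. By the locus at the summit there were 185, or 2.54%. In 13 of those 185 genes 2 separate peaks of the 3' UTR passed, and none had more. They were ETNK1, NT5DC3, GTF2A1, CLMN, TTBK2, ZFHX3, FOXN2, ZNF217, RUNX1, PCDH7, SOX4, FOXK1 and ZFX, chosen for naming after their values were seen. In RUNX1, a transcription factor of blood cell development, the 2 folds were 4.99 on 8 fragments and 4.76 on 6 fragments, and in SOX4, an SRY-related transcription factor, they were 3.96 on 13 fragments and 3.54 on 16 fragments.

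The 3' UTR peaks with the most RIP fragments were a different kind. CAV2, a caveolin, had 34 fragments and a fold of 1.65 (1.15 to 2.28). NHERF2, a scaffold of membrane transporters, had 32 and 1.60. S100A11 and S100A10, small EF-hand proteins, had 32 and 31 fragments, both with a fold of 1.55, and TUBA1B, an alpha-tubulin, had 31 and 1.71. Their control levels of 17.7 to 20.3 reach the highest of any 3' UTR peak, and none reached the q limit.

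Of the study's own genes, CRTC2 had no 3' UTR peak. The peaks nearest the end of its locus are annotated as promoter, and the highest fold in the gene was 3.73 (1.84 to 6.94) in an exon, on 8 fragments. YTHDF2 had 2 overlapping 3' UTR peaks. The one at chr1:28769054-28769084 had a fold of 2.81 (1.28 to 5.64) on 6 fragments, and the one at chr1:28769583-28769640 had 2.50 (1.35 to 4.31) on 11 fragments. They lay 700 and 181 bases before the transcript end, both had a −log10 q of 0, and an exon peak of the same gene had 3.42 (1.75 to 6.18).

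In the same gene, coding exons tended to hold the higher peak. Of 2821 genes with a 3' UTR peak and a coding exon peak that both overlapped the gene, the highest fold was in the 3' UTR in 1091 (38.7%) and in an exon in 1678 (59.5%), with 52 ties. The median of the highest folds was 2.45 in 3' UTRs and 2.65 in exons. The genes held a median of 2 peaks in the 3' UTR and 3 in exons, so the highest was drawn from more exon peaks. When each gene's median fold was taken in place of its highest, the values were 1.97 and 2.001.

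Single genes could not be told apart at this depth. The intervals of the highest folds were apart with the 3' UTR higher in 0 genes (0% of those compared) and with the exon higher in 1 gene (0.0354%), and no test between libraries was possible. That gene was TRIOBP, an actin-bundling protein gene, with 2.06 (1.26 to 3.19) on 18 fragments in the 3' UTR and 6.62 (3.67 to 11.2) on 12 fragments in an exon. A peak at the q limit was found in the 3' UTR of 65 of the 2821 genes and in an exon of 246. In 20 genes both passed, among them MECOM with 6.12 in the 3' UTR and 6.37 in an exon, SETD1B with 5.38 and 4.24, TCF7L2 with 4.83 and 6.48, and POU2F1 with 5.03 and 6.73. TCF7L2 is a transcription factor of Wnt signalling and POU2F1 an octamer-binding transcription factor. A further 970 genes had a 3' UTR peak and no coding exon peak.

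Measured along the genome, introns included, the summits of overlapping peaks lay a median of 1774.5 bases before the end of the assigned transcript (quartiles 682 and 4015.5). Such a distance can span introns and the 3' ends of other isoforms, so it does not place a summit within its 3' UTR. The share of these peaks was 8.41% at 100 to 250 bases, 20.5% at 1000 to 2000 bases and 26.0% at 2000 to 5000 bases, and a further 10.2% lay over 10000 bases away. The share at the q limit was 0.554% at 500 to 1000 bases and 1.14% (0.772 to 1.63) at 2000 to 5000 bases. Intervals overlapped between these bins, and the median fold stayed within 1.85 to 1.92 from 100 bases on. No bin of this distance from 100 bases on stood apart in fold.

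**Figure D4:**
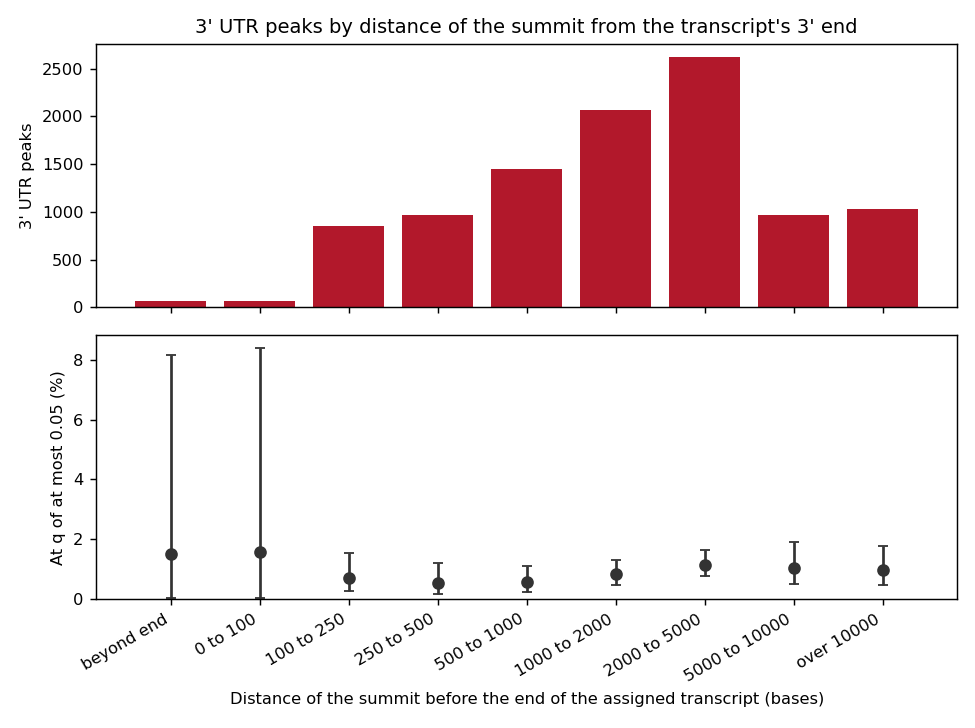
Number of overlapping 3' UTR peaks (upper panel) and share at a q-value of at most 0.05 in % (lower panel) by the distance of the summit before the 3' end of the assigned transcript in bases (horizontal axis, unequal bins); bars are exact 95% intervals. Most summits lie 500 to 5000 bases before the end, and the intervals of the passing share overlap, with 1.14% at 2000 to 5000 bases.

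Across chromosomes the 3' UTR share of peaks ran from 20.2% (18.4 to 22.0) on chromosome 13 and 18.9% on chromosome 5 to 12.3% on chromosome 7, leaving out Y with 18 of 164 peaks. No 3' UTR peak overlapped any of 1562 RefSeq microRNA hairpins.

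The lists that follow are known gene groups of 3' UTR biology, m6A, CREB signalling and liver. They were picked with earlier results of these data known and are given as counts, without a test. For each list the overlap count is read against the 18.3% of all coding genes and the count by summit locus against 36.3%, neither of which is matched for expression or 3' UTR length. A message must be expressed and have a long enough 3' UTR to hold a peak, and the part of both in these shares was not tested. The promoter rule also applies, as peaks within 3000 bases of a transcript start are annotated as promoter. The 3' UTR of a short gene can thus fall outside the class. Absence from the class does not show a lack of RIP signal. Among all coding genes with a 3' UTR peak, 2.16% passed the q limit by overlap and 2.54% by summit. A count of 0 at that limit in lists of this size therefore does not set a list apart.

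Messages with AU-rich elements, which mark short-lived transcripts, had a 3' UTR peak in 11 of 26 genes by overlap and 13 by summit. The highest folds were in CTNNB1, the beta-catenin gene, at 3.48 (1.83 to 6.13) on 10 fragments, and ZFP36L2, itself an AU-rich element binding protein, at 3.11 (1.64 to 5.49) on 10 fragments. PTGS2, the inducible prostaglandin synthase, had 2.73 on 2 fragments, and the growth factor VEGFA had 2.65 on 5 fragments. The immediate early genes FOS and JUN, and MYC, had none in this class, which under the promoter rule does not show a lack of RIP signal.

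Genes for proteins that bind 3' UTRs had one in 7 of 34 by overlap and in 28 (82.4%) by summit, the highest share of any list. This list shows how far gene assignment sets the count. By overlap, CPEB2, a cytoplasmic polyadenylation element binding protein, had 4.90 (2.33 to 9.44) on 7 fragments and passed the q limit, and the splicing and decay factor CELF1 had 3.97 on 8 fragments. By summit locus 2 more passed, TNRC6C, a GW182 protein that links Argonaute to deadenylation, at 4.93, and PUM2, a Pumilio repressor, at 4.41. AGO3 held 27 peaks by summit with a highest fold of 2.83, none deeper than 2 fragments, and AGO2 held 17 with a highest of 4.07.

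P-body and stress granule proteins, which hold and degrade silenced messages, had 7 of 30 by overlap and 23 by summit. The exonuclease XRN1 had 3.64 on 3 fragments, with its summit 111420 bases before the end of the assigned isoform. The decapping enzyme DCP2 had 3.28 on 3 fragments, the deadenylase CNOT6L had 3.04 on 3 fragments and the helicase DDX6 had 2.88 (1.43 to 5.37) on 8 fragments. LSM14A, at 4.66 by summit locus, was the 1 member at the q limit. Cleavage and polyadenylation factors had 8 of 20 by overlap and 11 by summit, with PAPOLG, a poly(A) polymerase, at 3.06 and CSTF2 at 2.90 on 4 fragments each. The summit of that CSTF2 peak lay past the transcript end and in no RefSeq coding gene. By summit locus the highest fold of CSTF2 was 1.68. CPSF2 had 2.83 on 2 fragments and PABPN1 2.58 on 13 fragments, where the readthrough gene BCL2L2-PABPN1 shares the summit.

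Among the m6A machinery, 10 of 23 genes had a 3' UTR peak by overlap and 18 by summit, with 0 at the q limit. The background for that 0 is the 2.16% and 2.54% of coding genes given above. RBM15, which brings the methyltransferase to RNA, had 3.67 (1.61 to 7.75) on 5 fragments. The reader IGF2BP1 had 11 peaks with a highest fold of 2.90 on 4 fragments, and the writer subunit ZC3H13 had 2.83 on 2 fragments. WTAP, VIRMA, METTL5 and YTHDC1 had none either way. Messages known to carry m6A had 5 of 24 by overlap and 11 by summit. These shares were 20.8% against 18.3% of all coding genes by overlap, and 45.8% against 36.3% by summit. In that list CTNNB1 had the value above, SNAI1, a transcription factor of epithelial-mesenchymal transition, had 2.21 on 4 fragments and SEC62 had 1.84 on 2 fragments.

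Known let-7 target messages had 5 of 22 by overlap and 17 by summit. TGFBR1, a TGF-beta receptor, had 3.67 (1.61 to 7.75) on 5 fragments, DICER1, the microRNA processing enzyme, had 3.27 on 3 fragments, and the cell cycle phosphatase CDC25A had 1.98 on 6 fragments. IGF1R, by summit locus, was the 1 member at the q limit. LIN28B, HRAS, CCND2, MYC and FIGNL2 had no 3' UTR peak either way. Whether these peaks hold sites for the seed shown above was not tested. Selenoprotein messages, whose 3' UTRs carry the element that recodes a stop codon, had 4 of 24 by overlap and 8 by summit, with SELENOT at 3.11 on 10 fragments, SELENOO at 2.87 on 3 fragments, SELENOF at 1.92 on 7 fragments and TXNRD3 at 1.89 on 1 fragment.

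In CRTC and CREB signalling, 6 of 24 genes had a 3' UTR peak by overlap and 15 by summit. Of these, 0 were at the q limit, against the same background of 2.16% and 2.54%. PRKAR1A, a regulatory subunit of protein kinase A, had 3.84 (2.02 to 6.77) on 10 fragments, 20870 bases before the end of the assigned isoform. PRKACB, a catalytic subunit, had 3.19 on 3 fragments, and the cAMP phosphodiesterase PDE4D had 3.14 on 3 fragments. SIK1, a kinase that phosphorylates CRTC proteins, had 3.53 (1.68 to 6.80) on 7 fragments, but that peak lies in a duplicate of the gene on chromosome 21 and its placing is uncertain. At the SIK1 locus itself 4 summits were found, with a highest fold of 2.68. CREB target genes had 8 of 20 by overlap and 10 by summit, with EGR1 at 3.09 on 6 fragments, SALL1 at 1.99 on 2 fragments and NR4A2 at 1.85 on 1 fragment.

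Genes altered in liver cancer had 8 of 28 by overlap and 18 by summit, with CTNNB1 and VEGFA as above and BAP1, a deubiquitinase, at 3.44 on 5 fragments. The kinases inhibited by lenvatinib had 3 of 10 by overlap and 4 by summit, namely KDR at 2.45 on 3 fragments, FGFR3 at 2.28 and FGFR4 at 1.84, both on 2 fragments, and by summit also FGFR1. None of the folds of KDR, FGFR3 and FGFR4 had an interval wholly above 1.

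The lowest shares were in the lists that follow. The listed cytosolic ribosomal protein genes had 5 of 39 by overlap and 7 by summit. RPL34 had 3.67 on 5 fragments, RPL15 had 2.40 on 9 fragments and RPL19 had 1.99 (1.36 to 2.81) on 30 fragments. RPS24 had 1.59 on 1 fragment, 16156 bases before the end of the assigned isoform. Replication-dependent histone genes, whose messages end in a stem-loop in place of a poly(A) tail, had 0 of 23 by overlap and 2 by summit. Under the promoter rule, a transcript shorter than 3000 bases can hold no 3' UTR peak. Low counts in lists of short genes were therefore partly set in advance and are not read further.

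The cell type markers bear on the label of the cells. Hepatocyte markers had a 3' UTR peak in 2 of 26 genes by overlap, FOXA1 at 3.36 (1.90 to 5.57) on 13 fragments and FGA at 1.67 on 1 fragment, and in 3 by summit. The one added by summit was the transcription factor HNF4A, with 3 peaks, a highest fold of 3.09 and at most 6 fragments. The other 23 had none either way, among them the secreted proteins ALB, APOA1, TTR and SERPINA1. The promoter rule bears on short genes here too. Blood and immune markers had 0 of 20 either way, and stellate, endothelial and fibroblast markers had 1 of 19 by overlap, LUM at 2.45 on 3 fragments. A peak reports enrichment over input and not expression, so these counts neither measure nor deny the hepatocyte character of HCCLM3.

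**Figure D5:**
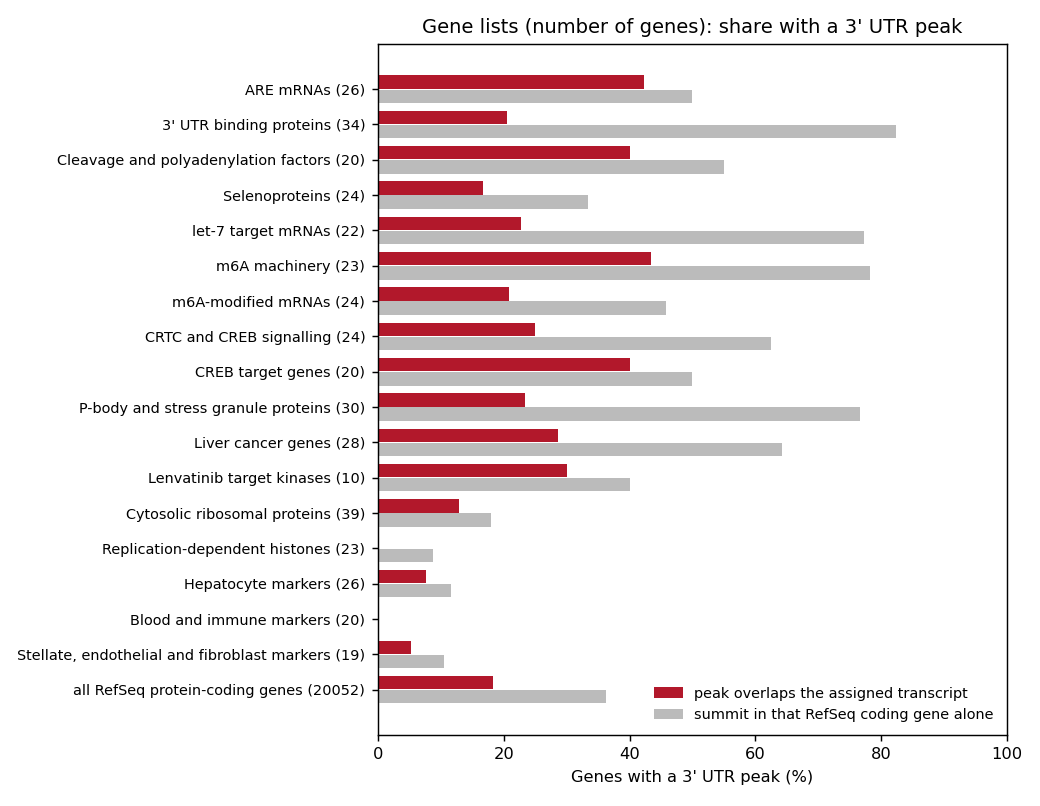
Share of the genes of each list with a 3' UTR peak (horizontal axis, %), red for peaks that overlap the assigned transcript and grey for summits inside that RefSeq coding gene alone; the number of genes stands in brackets and the last pair of bars is all coding genes, at 18.3% and 36.3%. The binding protein, m6A machinery, let-7 target and P-body lists have grey bars past 75%, and the blood marker list is at 0.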

How the data were processed

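The deposited file is 1 annotated peak list from 1 CRTC2 RIP and 1 input library. A Magna RIP kit served for RNA extraction and a SMARTer stranded total RNA pico kit for the libraries, per the labels' protocols. Per the submitters' processing notes, HISAT2, MACS2 and hg38 were used. The sources used here give no versions or settings. Fold enrichment (a ratio), −log10 of the p-value and q-value and the score of each peak are the authors' deposited values. The headers of the −log10 columns were lost in the file, and they were identified from their place and values. Total reads per library are not given.

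From these, fragments and control level at each summit were recovered (checked on simulated data), classes were counted, and exact 95% intervals were computed with SciPy 1.17.1, pandas 2.3.3, NumPy 2.4.6 and Python 3.11.15; figures were drawn with matplotlib 3.10.9. Sequences and loci are from RefSeq (GRCh38.p14). Members and gene lists were chosen with earlier results of these data known. The text names YTHDF2 and CRTC2, the top 10 genes by fold and by −log10 q, the top 5 by number of peaks and by fragments, and in each of 17 lists the top 4 by fold, any at the q limit and members without a peak where these are 5 or fewer. Other names were added after their values were seen, and some items the rule names are not reported here. Motifs were not searched, as no genome sequence was used here.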

Additional observations from a re-analysis of the deposited data

How the results depend on the processing

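With peaks of at most 1 kb, the 3' UTR share of peaks was 15.9%, the median fold 1.90 and the share at the q limit 0.768%. With no width limit the 3' UTR share was 13.9%. At a fold of at least 4 there were 363 peaks in 138 genes, 13.4% of all such peaks, with a median fold of 4.32, and 50.1% were at the q limit. At 5 or more fragments there were 6645 peaks in 1719 genes, 16.3% of all such peaks, with a median fold of 2.12, 2.35% at the q limit and a median distance of 1574 bases from the transcript end. At the q limit there were 213 peaks in 81 genes, 9.01% of all such peaks, with a median fold of 4.63 and a median distance of 2451 bases. At a −log10 q of 5 there were 4 peaks in 1 gene by overlap, 4.12% of all such peaks, with a median fold of 7.57. Counting all assigned genes gave 7020 genes. The RefSeq locus at the summit, an alternative chosen after the data were seen, gave 7277 genes and raised the genes of the lists with a 3' UTR peak to 169 of 380, against 77 by overlap. Keeping contigs, or asking for the summit inside the assigned transcript, moved no result by more than its counting interval or by 1.5 times. The planned motif searches around the summits, with their alternatives in window and depth, were not run. No paired analysis was possible because each side has 1 library. Depth limits what single peaks show, as 6645 of 23593 had at least 5 fragments.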
